A study of Mus musculus with 4 samples.

Results

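The genes described are the 9 of the mitochondrial fission and fusion machinery: Dnm1l, Fis1, Mff, Dnm2 and Gdap1 on the side of fission, Mfn1, Mfn2 and Opa1 on the side of fusion, and Oma1, which cuts Opa1. They were chosen by symbol, as the gene probes whose name in the scanner output is one of these symbols. This gave 17 probes for 9 of the 30204 genes or transcripts on the array, and 6 of the 9 genes have several probes. Liver RNA of male C57BL/6J mice on HFD, a diet rich in fat, was read on 4 single-color Agilent arrays, 1 per combination of genotype and feeding state. No combination has a second array, so the differences between single arrays have no replicate check, and whether more than 1 animal stands behind an array is not given in the sources used here.

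All 4 groups had received HFD for 24 weeks, which the methods start at 4 weeks of age. The controls (Cont), named wild type in the labels, are in the methods littermates that carry the floxed Drp1 allele on both chromosomes (Drp1 flox/flox) without Cre. The Drp1LiKO mice, named knockout in the labels, carry the same alleles and Alb-Cre, whose albumin promoter is active in hepatocytes. Which other cells of the liver keep the gene is not given in the sources used here. By the labels, the refed mice were fasted for 17 h and then fed for 4 h. The paper's methods give a slightly shorter fast before the same time of refeeding. The other 2 arrays have no feeding state in their labels and are described there as raw data shared with an earlier submission. They are called fasted here from the paper alone. The design text of the series speaks of refeeding without exception and of no group left fasted, so every value called fasted, and every refeeding difference, rests on that reading.

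Mitochondria of most cells divide and fuse continually. Drp1, the dynamin-related GTPase encoded by Dnm1l, is recruited from the cytosol by receptors on the outer membrane, forms rings around the mitochondrion and constricts it. The mitofusins join outer membranes, Opa1 joins inner membranes and shapes cristae, and proteolytic cutting of Opa1 by Oma1 limits fusion. Hepatocytes are rich in mitochondria, and loss of Drp1 is known to give them enlarged mitochondria.

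Each probe has 60 bases and reads only its own stretch of a transcript. The stretches on which the results turn are printed here from the array design, 30 bases each. The only probe of Dnm1l lies on chromosome 16 of the mm9 build, minus strand, at chr16:16312331-16312390, and starts at base 3993 of the transcript NM_152816. It has a stop codon in all 3 forward reading frames, and AATAAA, the usual signal for polyadenylation, begins at its base 35 and is shown in capitals. AATAAA occurs on this strand in 12.6% of the 39392 probes, and in 2 of the 17 probes of these genes, those of Dnm1l and of the brighter Dnm2 probe. On the opposite strand it occurs in 4.03% of all probes and in 0 of the 17.

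Dnm1l, bases 23 to 52: atgttctatgtaAATAAAaatgctggtgtg

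The paired probes of Mff share 51 bases and differ at 3 of them, which are in capitals. Counted from the 5′ end of the NM_029409 probe, whose base is written first, the BC016597 probe has G32A, G43C and G55A.

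Mff, NM_029409 probe: tgtGcaggactgaaGtcaaaccacctGact
Mff, BC016597 probe: tgtAcaggactgaaCtcaaaccacctAact

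The probe pairs of Fis1 and Opa1 are shown because their members gave different genotype differences. Nothing is capitalized in these first 30 bases of each probe, and each is named by the transcript base at which it starts.

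Fis1, from base 210: aaagactccggttgatagaccgctacggag
Fis1, from base 868: agcctcttagcccctgcacctgtcgtttaa
Opa1, from base 3188: ttgaagaatgaaaacttgagtcttttgtcc
Opa1, from base 5760: ctgtagcaactggaaatgtgcttgaaaata

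Signals are given as log2 of the background-subtracted intensity relative to the 75th percentile of the same array, called log2 levels below. That percentile was 461 in Cont and 722 in Drp1LiKO fasted liver, and 357 and 526 in refed liver, so an unscaled signal is read against a brighter array in each Drp1LiKO liver. The share of gene spots well above background lay between 48.7% and 58.2%, and 0 spots were saturated. Of the 17 probes, 15 were well above background on all 4 arrays, and they cover 8 of the 9 genes. A measurement SE from the scanner's error model, about 0.20 for a difference, accompanies each difference. It covers the measurement and not the variation between animals. A gene is represented by its brightest probe among those well above background on most arrays, and levels of different probes are not set against each other. In whole liver, fewer cells of a type and less RNA per cell cannot be told apart.

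No fission or fusion gene reached a 2-fold difference between genotypes or between feeding states. The count was 0 of 8 measured genes in each of the 4 comparisons. Over all measured genes, 13.2% differed at least 2-fold between genotypes in fasted and 14.4% in refed liver, and with refeeding 10.3% did in Cont and 12.8% in Drp1LiKO liver. The middle of the 8 log2 differences (their median) was -0.22 in fasted and -0.14 in refed liver, Drp1LiKO minus Cont, where all genes had medians of -0.08 and -0.04. With refeeding it was 0.17 in Cont and 0.16 in Drp1LiKO liver, against 0.09 and 0.08 over all genes. All genes here, also in the shares, include those well above background on only 1 array of a pair. Among genes well above background on all 4 arrays, as the 8 are, the genotype medians were -0.12 fasted and -0.08 refed. With refeeding the medians of that set were 0.11 in Cont and 0.12 in Drp1LiKO liver. Of the 8 genes, 6 were lower in Drp1LiKO than in Cont fasted liver and 7 in refed liver, while 56.3% and 53.9% of all genes were lower. This depends on the scaling. With quantile normalization Dnm2 and Mfn1 were higher in refed Drp1LiKO liver, by 0.04 and 0.01. With normexp background correction the genotype medians of the 8 genes were -0.15 fasted and -0.08 refed, against -0.13 and -0.11 over all genes. With refeeding 1 of the 8 was lower in Cont (Dnm1l) and 3 in Drp1LiKO (Dnm1l, Mff and Oma1), where 41.3% and 44.6% of all genes were. At 1.5-fold in place of 2-fold, the genotype counts were 0 of 8 in fasted and 1 of 8 in refed liver (Opa1), beside 28.3% and 30.4% of all genes. The refeeding counts at 1.5-fold were 0 of 8 in Cont and 1 of 8 in Drp1LiKO liver (Fis1), beside 21.7% and 32.5%. The genotype and refeeding comparisons share arrays and are not independent of each other.

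**Figure D1:**
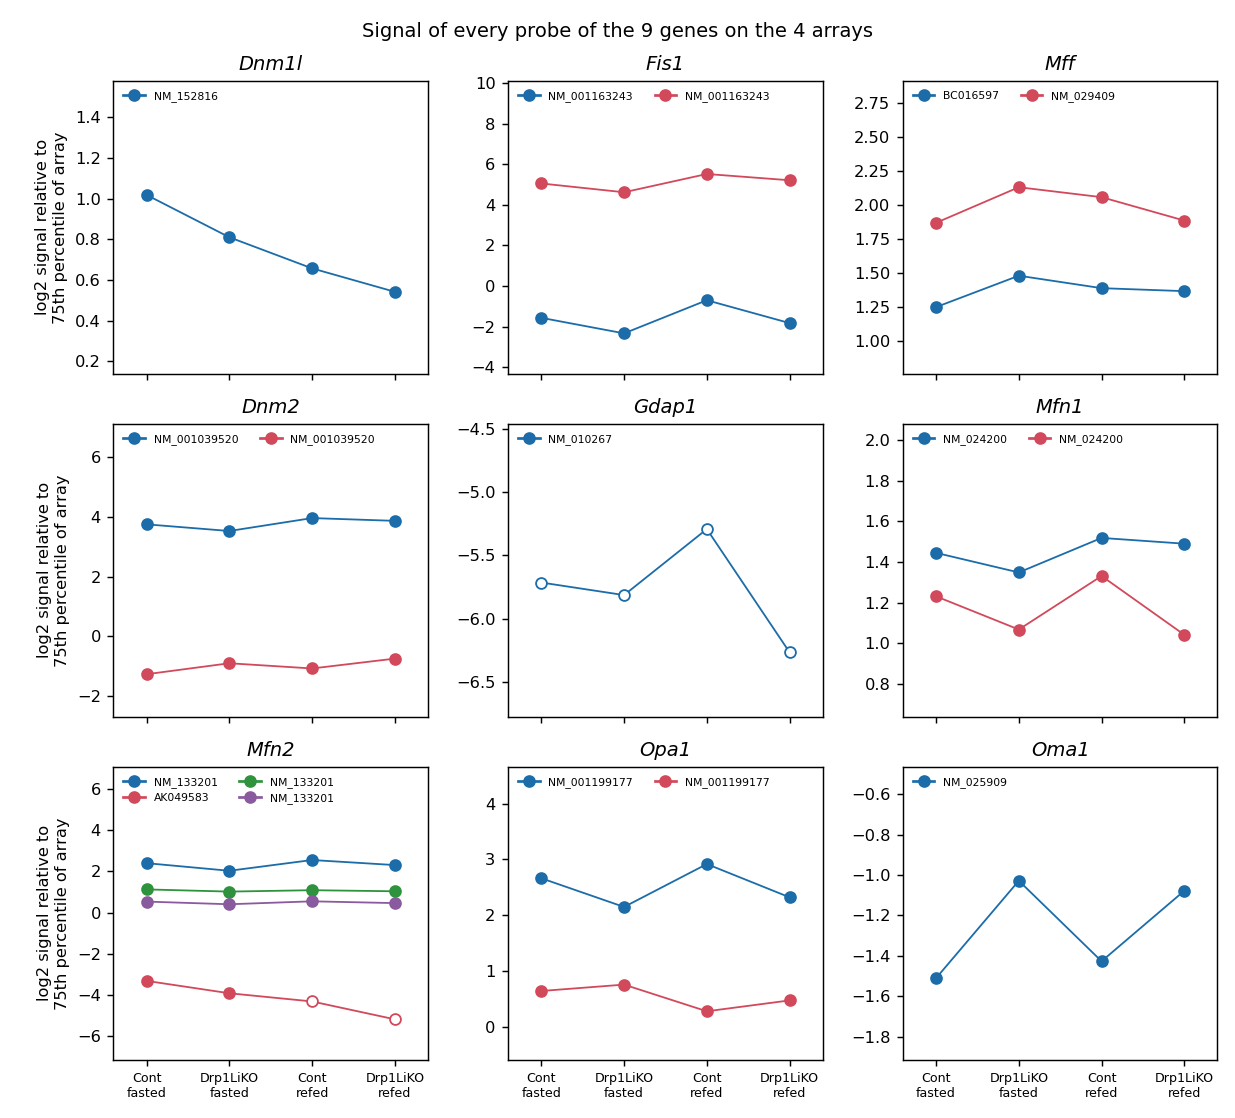
Log2 signal relative to the 75th percentile of the array (y axis, a scale of its own in each panel) on the 4 arrays (x axis) for all 17 probes of the 9 genes, 1 array per group. Filled points are well above background and open points are not. Gdap1 has open points on all 4 arrays, and the lines of the Opa1 probes run in opposite directions between genotypes.

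Dnm1l was measured in every liver, knockouts included. Its log2 level was 1.02 in Cont and 0.81 in Drp1LiKO fasted liver, and 0.66 in Cont and 0.54 in Drp1LiKO refed liver. The intensities before scaling ran the other way, 933 in Cont and 1266 in Drp1LiKO fasted liver and 563 and 765 in refed liver. Relative to the array, the Drp1LiKO signal was thus 86.6% of Cont in fasted liver, with 2 measurement SEs on either side reaching from 65.2% to 115%. In refed liver it was 92.3% of Cont, with a range from 69.5% to 123%. Both ranges include no difference. The position of the deleted exons is not given in the sources used here, and a probe outside the deleted part still reads the remaining transcript, so this signal does not check the genotype labels.

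The Dnm1l signal was lower in refed than in fasted liver of both genotypes, by a log2 difference of -0.36 (SE 0.20) in Cont and -0.27 (SE 0.20) in Drp1LiKO. Neither passed 2 measurement SEs. The additive limma model, which takes both genotypes together, gave a feeding effect of -0.31 (SE 0.14) with a Benjamini-Hochberg adjusted p of 0.243, and a genotype effect of -0.16 (SE 0.14) with an adjusted p of 0.483. Over the scaling alternatives the fasted genotype difference stayed between -0.25 and -0.16, and the refed one between -0.12 and -0.03.

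Fis1, an outer membrane protein that binds Drp1, was lower in Drp1LiKO liver and higher in refed liver at both of its probes. Its brighter probe, at chr5:137442023-137442082 on the plus strand of mm9, read log2 levels of 5.05 in Cont and 4.62 in Drp1LiKO fasted liver. In refed liver it read 5.52 in Cont and 5.21 in Drp1LiKO. The level was lower in the Drp1LiKO liver of each pair and higher in the refed liver of each genotype. The genotype difference was -0.43 (SE 0.20) fasted, past 2 measurement SEs, and -0.31 (SE 0.20) refed, short of them. The refeeding difference was 0.47 (SE 0.20) in Cont and 0.59 (SE 0.20) in Drp1LiKO, both past 2 SEs, and in limma the feeding effect was 0.53 (SE 0.14) at an adjusted p of 0.169. Quantile normalization reduced the fasted genotype difference to -0.18 and the refeeding differences to 0.22 and 0.25.

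The second Fis1 probe lies 12608 bases upstream, at chr5:137429355-137429414, and its direction was the same with a larger difference by genotype. Its log2 levels were -1.57 in Cont and -2.33 in Drp1LiKO fasted liver, and -0.70 in Cont and -1.83 in Drp1LiKO refed liver. Before scaling its intensities were 156 in Cont and 143 in Drp1LiKO fasted liver, and 220 and 148 in refed liver. They were also lower in Drp1LiKO, but closer together than after scaling. The genotype difference of -0.77 (SE 0.22) in fasted and -1.13 (SE 0.21) in refed liver is the only one among the 15 probes measured everywhere that reached 2-fold, a fold of 2.18 lower. Over all probes, 13% reached 2-fold by genotype in fasted and 14.3% in refed liver. In the fit to all probes, limma gave it a genotype effect of -0.95 (SE 0.17) at an adjusted p of 0.109. The difference at the probe from base 210 lay below that at the probe from base 868 by 0.82 (SE 0.30) in refed liver, and by 0.33 (SE 0.30) in fasted liver, the latter within 2 SEs.

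Mff, the main receptor of Drp1 on mitochondria and peroxisomes, was close to level. The NM_029409 probe, at chr1:82748715-82748774 on the plus strand, read 1.87 in Cont and 2.13 in Drp1LiKO fasted liver. It read 2.06 in Cont and 1.88 in Drp1LiKO refed liver, so that the fasted difference was 0.26 (SE 0.20) and the refed one -0.17 (SE 0.20). The near-identical BC016597 probe, at chr1:82748724-82748783, gave 0.23 (SE 0.20) and -0.02 (SE 0.20). The change of the genotype difference with refeeding was -0.43 (SE 0.29) for the first probe and -0.25 (SE 0.29) for the second, both within 2 SEs.

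Dnm2, a dynamin of endocytosis that has also been described at sites of mitochondrial division, is read by probes that are 2460 bases apart on chromosome 9. The brighter, at chr9:21311509-21311568, gave log2 levels of 3.75 in Cont and 3.53 in Drp1LiKO fasted liver, and of 3.96 and 3.87 in refed liver. The dimmer, at chr9:21308989-21309048, gave -1.27 and -0.91 fasted, and -1.08 and -0.75 refed. The brighter probe was thus lower and the dimmer higher in Drp1LiKO liver, with genotype differences of -0.22 (SE 0.20) and 0.37 (SE 0.21) in fasted liver. They lay 0.59 (SE 0.29) apart there and 0.42 (SE 0.29) apart in refed liver, so the direction for Dnm2 depends on the probe. It also changed sign in refed liver under quantile normalization, to 0.04.

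Gdap1, an outer membrane protein of nerve that promotes fission, gave no signal well above background at its only probe, chr1:17153937-17153996, in any of the 4 livers. No difference is given for it.

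At the probes well above background on all 4 arrays, the mitofusins differed between genotypes by less than 2 SEs. Mfn1, at chr3:32476215-32476274, had log2 levels of 1.44 in Cont and 1.35 in Drp1LiKO fasted liver, and of 1.52 and 1.49 in refed liver. Its second probe, 145 bases further on at chr3:32476420-32476479, read 1.23 and 1.07 fasted and 1.33 and 1.04 refed. All 4 genotype differences were negative and within 2 SEs, from -0.29 to -0.03. The refed difference of the first probe changed sign, to 0.05, with scaling to the median of each array.

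Mfn2, which also tethers mitochondria to the endoplasmic reticulum, has 4 probes on the minus strand of chromosome 4. The brightest, at chr4:147247704-147247757, read 2.40 in Cont and 2.03 in Drp1LiKO fasted liver, and 2.56 in Cont and 2.31 in Drp1LiKO refed liver. The lower level in Drp1LiKO liver, by -0.37 (SE 0.20) and -0.25 (SE 0.20), stayed within 2 SEs. A second pair of probes of the same transcript, at chr4:147248131-147248190 and chr4:147248019-147248078, gave genotype differences between -0.13 and -0.05. The fourth probe, at chr4:147255665-147255724, reads the cDNA clone AK049583. It was well above background in the fasted livers alone, with log2 levels of -3.33 in Cont and -3.93 in Drp1LiKO. The genotype difference there was -0.60 (SE 0.35), within 2 SEs. The refed signals were not well above background, so the level of fasted over refed liver is a bound, 0.22 in Cont and 0.61 in Drp1LiKO on the log2 scale. These bounds leave out the measurement SE of the difference, 0.65 in Cont and 0.61 in Drp1LiKO, and neither exceeds 2 such SEs.

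Opa1, the GTPase of inner membrane fusion, went opposite ways at its probes in all 4 comparisons. The probe from base 3188, at chr16:29651875-29651934, read 2.66 in Cont and 2.15 in Drp1LiKO fasted liver, and 2.92 in Cont and 2.32 in Drp1LiKO refed liver. The Drp1LiKO level was lower in both pairs, at 70.1% of Cont fasted and 66.2% refed. The differences of -0.51 (SE 0.20) and -0.59 (SE 0.20) both passed 2 SEs. Quantile normalization gave -0.38 in fasted liver, short of 2 SEs, and -0.49 in refed liver. The limma genotype effect of -0.55 (SE 0.14) had the smallest adjusted p of the 8 genes, 0.129.

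The other Opa1 probe, 2512 bases downstream at chr16:29654447-29654506, read 0.65 in Cont and 0.76 in Drp1LiKO fasted liver, and 0.29 in Cont and 0.48 in Drp1LiKO refed liver. Here the Drp1LiKO level was the higher one, by 0.11 (SE 0.20) and 0.19 (SE 0.21), both within 2 SEs. The 2 probes lay 0.63 (SE 0.29) apart in the fasted and 0.79 (SE 0.29) apart in the refed comparison. They also went opposite ways with refeeding, 0.25 against -0.36 in Cont and 0.17 against -0.28 in Drp1LiKO liver. The median over both probes gave -0.20 for either genotype difference. The gene's lower level in Drp1LiKO liver therefore rests on the probe from base 3188.

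Probes of 1 gene can be compared in 8 pairs among these genes, with the Mff pair and 3 Mfn2 pairs included. By genotype, 2 of the 8 pairs lay more than 2 SEs apart in fasted liver (Dnm2 and Opa1) and 2 in refed liver (Fis1 and Opa1). Among the 2522 genes with exactly 2 probes measured on all arrays, 12.4% lay that far apart in fasted and 11.1% in refed liver. With refeeding the count was 1 of 8 in Cont (Opa1) and 0 of 8 in Drp1LiKO, where 8.76% and 12.8% of the genes with 2 probes did.

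Oma1, the inner membrane protease that cuts Opa1 under stress, was the member with a higher level in Drp1LiKO liver of both pairs. Its probe spans 3210 bases of chromosome 4, from chr4:102994426-102997635, and so crosses at least 1 intron. The log2 level was -1.51 in Cont and -1.03 in Drp1LiKO fasted liver, and -1.43 in Cont and -1.08 in Drp1LiKO refed liver. The difference was 0.48 (SE 0.21) in fasted liver, past 2 SEs, and 0.35 (SE 0.22) in refed liver. With normexp background correction it was 0.30 in fasted liver, short of 2 SEs, and 0.13 in refed liver. The limma genotype effect was 0.42 (SE 0.14) with an adjusted p of 0.176. The refeeding difference was 0.08 (SE 0.22) in Cont and -0.05 (SE 0.21) in Drp1LiKO.

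**Figure D2:**
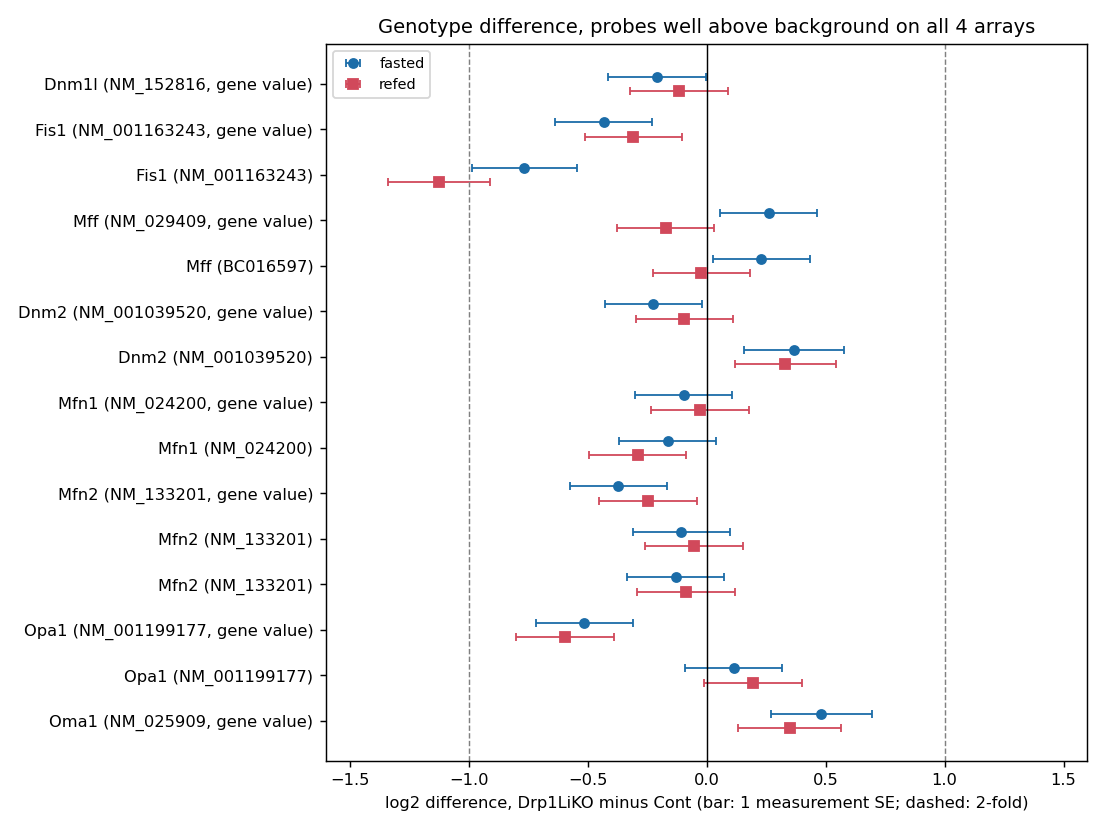
Log2 difference between Drp1LiKO and Cont (x axis) in fasted and refed liver for the 15 probes well above background on all 4 arrays (y axis), 1 array per group, with bars of 1 measurement SE and dashed lines at 2-fold. The Fis1 probe with -1.13 in refed liver is the point beyond 2-fold, and the Opa1 probes lie on opposite sides of 0.

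Past 2 measurement SEs by genotype were 3 of the 8 genes in fasted liver (Fis1, Opa1 and Oma1) and 1 in refed liver (Opa1), where 33.6% and 35% of all genes were. With refeeding it was 1 of 8 in either genotype (Fis1), where 28.7% and 40.5% of all genes were. In 8 genes these counts are near the shares of all genes or below them. The counts are those of the scaling to the 75th percentile. Whether the genotype difference itself changed with feeding was read from the difference of differences, and for 0 of the 15 probes did it pass 2 SEs.

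The additive limma model was the single test with more than 1 array per arm, and it has 1 residual degree of freedom. Any interaction of genotype and feeding counts as error in that residual and cannot be told from variation between animals. Its SEs also draw on a prior of 2.47 degrees of freedom taken from all genes. The model called 0 of the 8 genes for genotype and 0 for feeding at an adjusted p under 0.05, as it did 0% of the 16663 genes tested. At an unadjusted p under 0.05 in limma, 1 of the 8 had a genotype effect (Opa1) and 1 a feeding effect (Fis1), beside 28.4% and 26.5% of all genes. Restricted to genes well above background on all 4 arrays, limma called 8.56% of all genes for genotype and 0.111% for feeding, and with an intensity trend 2.92% for genotype, and in each case 0 of the 8 genes. The other scalings also gave 0 of the 8.

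**Figure D3:**
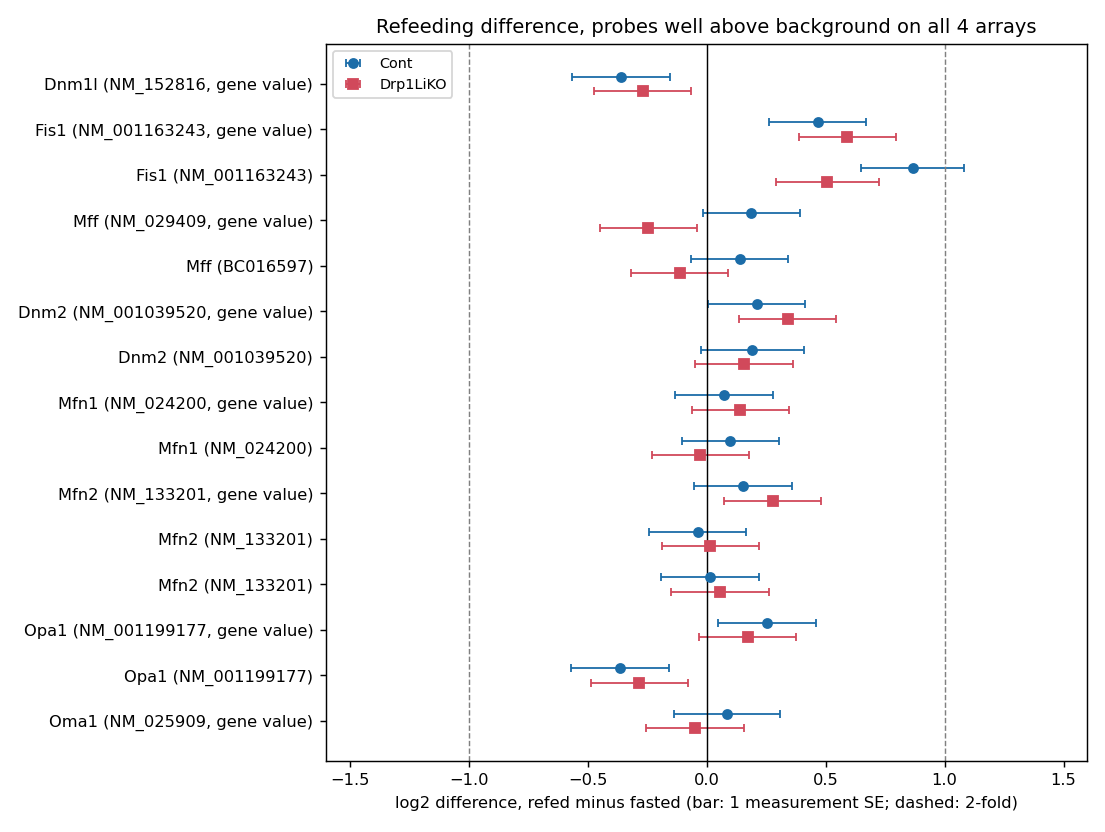
Log2 difference between refed and fasted liver (x axis) in Cont and Drp1LiKO for the 15 probes well above background on all 4 arrays (y axis), 1 array per group, with bars of 1 measurement SE and dashed lines at 2-fold. Both Fis1 probes lie above 0 in both genotypes and Dnm1l lies below 0 in both.

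The genes whose 4 levels ran most like those of Dnm1l, each centred on its own mean, were AK133468, Sema4g and Ubb, a ubiquitin gene. Their distances from Dnm1l were 0.018, 0.041 and 0.045 log2 units over 4 arrays. Among the 14386 genes compared, 2136 were nearer to Dnm1l than 1 measurement SE, so the nearest ones are not set apart by these data.

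The surrounding genes of mitochondrial dynamics were taken as 49 further genes, of which 47 were measured by genotype in both feeding states. In fasted liver 0 of 47 differed 2-fold between genotypes, and in refed liver 5 did, 2 higher and 3 lower in Drp1LiKO, beside 13.2% and 14.4% of all genes. With refeeding 1 of 46 was lower in Cont, and 3 of 47 were higher and 1 lower in Drp1LiKO, beside 10.3% and 12.8%. None of these 4 shares exceeds that of all genes. The counts read 1 probe per gene, and some second probes passed 2-fold with the brighter side well above background. By genotype these were Gdap2, at 1.22 fasted and 1.04 refed, Vapb at -1.11 fasted and Senp5 at 1.51 refed. With refeeding in Drp1LiKO they were Senp5, Akap1 and Dnm1, at 1.66, -1.06 and -1.01. The median genotype difference was -0.11 fasted and -0.09 refed. In limma 0 were called for either effect, and 11 of 47 had an unadjusted p under 0.05 for genotype and 11 for feeding, beside 28.4% and 26.5% of all genes.

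Fission receptors and regulators, 16 measured, included Mief2, an outer membrane receptor of Drp1. Its log2 level was -2.31 in Cont and -2.71 in Drp1LiKO fasted liver, and -2.37 in Cont and -3.50 in Drp1LiKO refed liver. The refed Drp1LiKO array is the low one, with a genotype difference of -1.14 (SE 0.35) there and -0.41 (SE 0.27) in fasted liver. Mtfp1, an inner membrane protein that promotes fission, had levels of 3.65 in Cont and 2.81 in Drp1LiKO fasted liver, and of 4.15 and 3.82 in refed liver. Its refeeding difference was 1.01 (SE 0.20) in Drp1LiKO and 0.50 (SE 0.20) in Cont.

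Of the groups by role, genes of fusion, cristae and Opa1 processing had the genotype medians closest to 0. None of the 14 measured by genotype reached 2-fold, and their median was -0.09 in fasted and -0.05 in refed liver. Yme1l1, the other protease that cuts Opa1, differed by 0.02 (SE 0.24) and 0.05 (SE 0.29). The lowest was Miga2, at -0.73 (SE 0.20) and -0.63 (SE 0.20), both past 2 SEs. The highest was Miga1, well above background in Drp1LiKO liver alone. Its bound there was 0.60 in fasted liver, without measurement error, and its fasted difference of 0.71 (SE 0.44) stayed within 2 SEs. The refed bound of -0.22 gives no direction either.

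Of the dynamin family and paralogs, the antiviral GTPases Mx1 and Mx2, which are induced by interferon and do not act in mitochondrial division, were higher in the refed Drp1LiKO liver than on any other array. Mx1 read -2.20 in Cont and -1.30 in Drp1LiKO fasted liver, and -2.80 in Cont and 0.03 in Drp1LiKO refed liver. Mx2 read 0.23 and 0.67 fasted, and -0.96 and 1.74 refed. The genotype differences in refed liver were 2.84 (SE 0.31) and 2.70 (SE 0.21).

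Peroxisomes divide with Drp1, Fis1 and Mff as mitochondria do. Pex11a, which elongates peroxisomes before division, read 6.32 in Cont and 5.76 in Drp1LiKO fasted liver, and 6.65 in Cont and 4.80 in Drp1LiKO refed liver. The refed Drp1LiKO array was again the low one, with a genotype difference of -1.85 (SE 0.20), against -0.56 (SE 0.20) in fasted liver.

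Vapb, an endoplasmic reticulum protein that tethers mitochondria, read 4.61 in Cont and 4.27 in Drp1LiKO fasted liver, and 4.50 in Cont and 2.68 in Drp1LiKO refed liver. Its genotype difference was -1.81 (SE 0.20) in refed and -0.34 (SE 0.20) in fasted liver. Its second probe gave -1.18 and -1.11, and with refeeding in Drp1LiKO the probes gave -1.59 and 0.06.

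**Figure D4:**
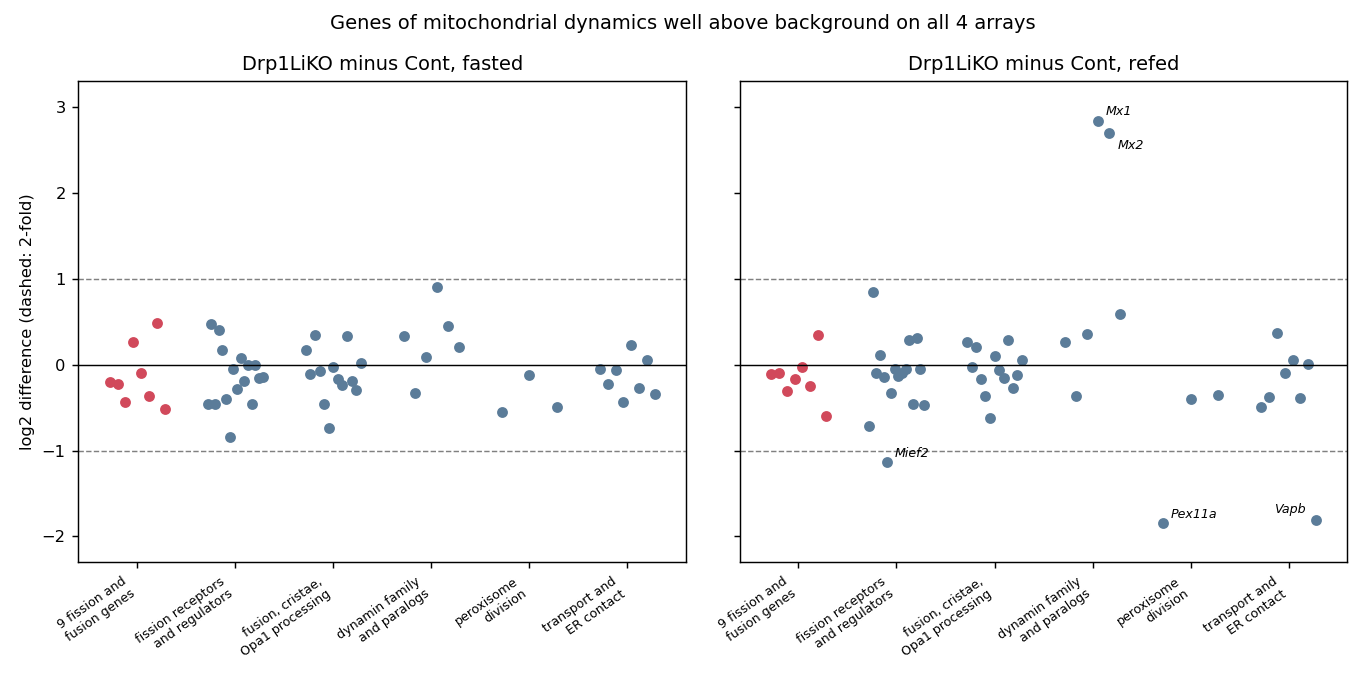
Log2 difference between Drp1LiKO and Cont (y axis, dashed lines at 2-fold) in fasted (left) and refed (right) liver for genes well above background on all 4 arrays, in columns by role, 1 array per group. The 9 fission and fusion genes, of which 8 are plotted, lie between -0.59 and 0.48, and the labelled genes of the right panel lie past 2-fold.

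All 6 hepatocyte markers were well above background on all 4 arrays, with a summed level, in multiples of the 75th percentile, of 1469 in Cont and 1089 in Drp1LiKO fasted liver and of 1796 and 1274 in refed liver. Of these, 4 (Alb, Ttr, Apoa1 and Hnf4a) were lower in Drp1LiKO in both states, by log2 differences of -0.66 to -0.16, with Alb, whose promoter drives Cre, at -0.52 and -0.55. Tat was higher by 1.04 in fasted and 0.98 in refed liver, and Cps1 by 0.60 and 1.24. All 5 macrophage markers were measured, with sums of 44.5 and 41.0 fasted and 44.9 and 57.6 refed, and 1 of the 5 (Lyz2) was at least 2-fold higher in Drp1LiKO, by 1.38 and 1.53. The other macrophage markers differed by -0.35 to 0.60 in fasted and by 0.24 to 0.57 in refed liver. Of 5 leukocyte markers 3 were measured on all arrays, with sums of 5.77 and 3.23 fasted and 6.60 and 9.83 refed. The sums of the 5 stellate cell and fibroblast markers were 1.33 and 2.89 fasted and 1.87 and 1.90 refed, those of 4 endothelial markers 22.8 and 16.7, then 26.8 and 16.5, and those of 5 bile duct markers 0.494 and 1.08, then 0.564 and 1.02. The single markers of a sum did not all go its way. Of the endothelial ones, Kdr was lower in Drp1LiKO by -0.81 fasted and -0.93 refed, and Stab2 by -0.05 and -0.24. Pecam1 and Lyve1 were higher, by 0.84 and 0.93 fasted and by 0.07 and 0.24 refed. Among leukocyte markers in fasted liver, Ptprc was higher by 1.20, while Cd3e, S100a8 and S100a9 differed by -0.67, -1.04 and -1.11. For the 3 adipocyte markers 0 arrays had a signal well above background. The part of these cell types in the fission and fusion results was not tested.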

How the data were processed

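The intensity values are processed signals from Agilent scanner files as deposited by the authors, background-subtracted within each array and linear. The file headers give Feature Extraction 10.7.1.1, the submitters' processing notes 9.5.1.1. All 4 arrays lie on 1 slide and in 1 scan. The RNA kit and array design named in the paper's methods differ from those in the labels, and the files carry the labelled design. The authors' matrix of normalized intensity values, with equal column medians of 39.6, served as an alternative. Against scanner signals quantile-normalized here, its log2 values differed by a median of 0.00036. Its scale is linear.

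Spots flagged as outliers were left out (37 probes), repeated spots averaged, and log2 signals set relative to the 75th percentile of the array. A gene was called at 2-fold or more where the brighter signal was well above background. limma 3.58.1 in R 4.3.3 fitted genotype and feeding on genes well above background on at least 2 of 4 arrays, with Benjamini-Hochberg adjustment at 0.05, and was tested on simulated data. With 2 arrays per arm, the number of arrays limits the precision. Positions are those of mm9 in the files; no genome of that build was used here. Alternatives were other scalings, normexp (offset 50), the matrix, the median over probes, a 1.5-fold threshold, and other filters and models. Named were all members, further genes at least 2-fold different in any comparison, and the 3 genes nearest to Dnm1l. Yme1l1, Miga1, Miga2, Gdap2, Senp5, Akap1 and Dnm1 were named besides. The members and lists were chosen with earlier results of these data known. Tables were handled in Python 3.11.15 with pandas 2.3.3.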

Additional observations from a re-analysis of the deposited data

Results flagged for a closer look

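Mx2, an interferon-induced dynamin-family GTPase, went opposite ways with refeeding in the genotypes. Refed minus fasted, its log2 difference was -1.18 in Cont and 1.07 in Drp1LiKO liver, with 1 array on each side, and the difference between the genotypes was not tested.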

How the results depend on the processing

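No paired analysis was possible because each group has 1 array, and leaving out an array leaves a comparison without one side. Counts, medians and model calls gave 128 comparisons with an alternative, of which 119 stayed within 1.5 times or within 1 measurement SE, 9 moved and 0 reversed. At 1.5-fold instead of 2-fold, 1 fission or fusion gene differed by genotype in refed liver (Opa1) and 1 with refeeding in Drp1LiKO (Fis1). With normexp, 0 further dynamics genes were called with refeeding in Cont. Over all genes, limma called 186 for genotype after scaling to the median, 511 with normexp, 1232 among genes well above background on all 4 arrays, 487 with an intensity trend and 1 without the feeding term. For feeding it called 16 among genes well above background on all 4 arrays. Of 160 single differences of the 8 genes, 20 moved and 12 changed sign, in Dnm2, Mfn1, Mfn2, Opa1 and Oma1. The median genotype difference of the 8 genes ranged over the scalings from -0.26 to -0.10 in fasted and from -0.14 to -0.06 in refed liver. That of all genes moved in fasted liver from -0.13 with normexp to 0.01 with quantile normalization. The cause of these moves was not tested. Signal over background leaves Gdap1 and the refed AK049583 probe of Mfn2 without a value.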
